A study of Homo sapiens with 30 samples.

Results

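The 7 genes described here start, hold back or localise blood clotting and plasminogen activation at the cell surface: F3, TFPI, TFPI2, THBD, PLAU, PLAUR and PLAT. They were chosen by name, and each was read by 1 probe set that the platform's annotation gives to that gene alone. They are 7 of 12690 such genes on the array, and all 7 were among the 7614 brighter genes that were tested. F3 and PLAU were close to the lower limit of the tested genes, at rank 7444 and 7476 by mean level.

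The samples were monolayer cultures of 3 human carcinoma lines on 30 arrays, 1 per RNA sample. RCC4, from a renal carcinoma, took 20 arrays, as cells null for VHL and as cells with wild-type VHL put back (VHL-restored). Both RCC4 genotypes were measured in oxygen (0 h), after hypoxia for 1, 2, 4, 6 and 18 h, and after 18 h of hypoxia followed by 1 h or 4 h of reoxygenation. H1299, a lung carcinoma line null for p53, took 4 arrays, as the null cells and as cells given p53 back, each at 0 h and 24 h. HCT116, a colon carcinoma line, took 6 arrays at 0, 12 and 24 h, from cells wild type for p53 and cells null for it. Hypoxia was oxygen below 0.01% in an anoxic incubator. RCC4 at 0 h and 18 h had 2 independent replicates per genotype, and every other condition had 1 array. The labels do not say whether a restored line was 1 clone or a pool of cells.

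Tissue factor, the product of F3, is the cell-surface receptor for factor VII and starts the extrinsic clotting pathway. TFPI blocks the tissue factor complex, and thrombomodulin, the product of THBD, turns thrombin towards activating the anticoagulant protein C. Urokinase (PLAU), bound to its receptor (PLAUR), and tissue plasminogen activator (PLAT) cut plasminogen to plasmin, which dissolves fibrin and matrix. VHL is the ubiquitin ligase component that marks hypoxia-inducible factors (HIF) for degradation in oxygen, so cells without it keep HIF in air.

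Promoters of 5 of the 7 genes were read from RefSeq on GRCh38.p14, as the 250 bases before the annotated start. THBD had no entry and PLAT was left out of the reading, so their promoters were not examined. The 4 shown are those with a match to the AP-1 motif TGANTCA or to the HIF core ACGTG or GCGTG. Matches on either strand are in capitals, so that a GCGTG on the other strand reads as CACGC.
F3, chr1:94541760-94542009, minus strand: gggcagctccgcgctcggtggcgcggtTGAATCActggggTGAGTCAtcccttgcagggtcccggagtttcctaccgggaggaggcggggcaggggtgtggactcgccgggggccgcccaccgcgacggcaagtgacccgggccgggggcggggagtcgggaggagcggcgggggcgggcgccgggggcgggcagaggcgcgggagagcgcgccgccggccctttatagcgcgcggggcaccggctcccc
PLAUR, chr19:43670170-43670419, minus strand: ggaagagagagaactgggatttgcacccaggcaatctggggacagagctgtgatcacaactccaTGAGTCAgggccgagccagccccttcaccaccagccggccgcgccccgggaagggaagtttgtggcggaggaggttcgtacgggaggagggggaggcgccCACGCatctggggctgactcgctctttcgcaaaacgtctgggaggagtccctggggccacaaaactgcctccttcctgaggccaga
TFPI2, chr7:93890754-93891003, minus strand: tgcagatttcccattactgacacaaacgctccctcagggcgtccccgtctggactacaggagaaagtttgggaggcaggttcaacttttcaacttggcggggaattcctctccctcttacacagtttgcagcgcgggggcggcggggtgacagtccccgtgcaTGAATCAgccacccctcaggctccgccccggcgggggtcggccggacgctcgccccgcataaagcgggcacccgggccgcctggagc
PLAU, second annotated start, chr10:73910882-73911131, plus strand: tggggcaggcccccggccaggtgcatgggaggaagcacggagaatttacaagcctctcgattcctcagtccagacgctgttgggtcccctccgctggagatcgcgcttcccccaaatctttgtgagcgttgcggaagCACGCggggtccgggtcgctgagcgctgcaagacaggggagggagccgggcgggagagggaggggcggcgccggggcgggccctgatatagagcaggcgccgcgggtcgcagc
The F3 window held 2 matches to TGANTCA, at -223 to -217 and -210 to -204 from the start, and none to ACGTG or GCGTG. Among 35116 annotated promoter windows of the same length 6.57% held a TGANTCA, and 0.402% held it at 2 or more places. PLAUR and TFPI2 held 1 TGANTCA each, PLAUR and the second PLAU start held 1 GCGTG each, and 43.2% of all windows held ACGTG or GCGTG. The TFPI window and that of the other PLAU start held none of these motifs. The F3 window also held 4 matches to the GC box GGGCGG, a motif found in 42.6% of windows.

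Values are intensities in array units, listed in whole numbers or as null, and tests ran on log2(intensity + 16) centred on each array's median, which understates the change of a dim gene. The arrays fell into 2 sets by blank control entries, 18 in set 1 and 12 in set 2, with a median listed intensity of 145 to 174 and 201 to 222. Replicate 1 of RCC4 at 0 h and 18 h was in set 1 and replicate 2 in set 2, with 1 h, 4 h and reoxygenation also in set 2, and all H1299 and HCT116 arrays were in set 1. Null entries made up 18.4% to 40.4% of an array's probe sets. F3 and PLAU differed between replicates 1 and 2 more than most genes, being higher in replicate 2 by a mean of 0.99 and 0.94 on the log2 scale, and 99.4% and 99.1% of the tested genes differed less. Of 4 renal epithelial markers measured, 1 or 2 were above the array median on each RCC4 array. Of 7 colon epithelial markers measured, 2 were above the median on each HCT116 array, and 2, KRT20 and GPA33, were null on all of them. Of 5 lung epithelial markers, 2 were above the median on each H1299 array. The colon and lung lists did not separate the lines. In H1299 2 colon markers were above the median as well, and in RCC4 and HCT116 2 or 3 lung markers in HCT116 and RCC4 alike. Of the renal markers, 0 or 1 were above it in H1299 and HCT116. Of 7 endothelial markers, 5 were above the median on every array of the 3 lines, as were 2 to 4 of 7 fibroblast and 1 to 3 of 6 leukocyte markers. Fewer cells expressing a gene and less RNA per cell cannot be told apart in these bulk samples.

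F3 was higher without VHL than with it in oxygen, and it rose with hypoxia in the VHL-restored cells. In oxygen, replicates 1 and 2 were listed at 9 and 126 with VHL and at 211 and 525 without it. After 18 h of hypoxia it was 105 and 311 with VHL and 223 and 518 without. Both VHL-null arrays lay above both VHL-restored arrays at 0 h, as in 5.06% of the tested genes, whereas at 18 h VHL-restored replicate 2 lay above VHL-null replicate 1. The genotype difference at 0 h was 2.50 on the log2 scale (SE 0.228, 5.66-fold, 2 arrays against 2), with an adjusted p of 1.68e-06 by limma with the replicate number as a block and 0.418 without it. After 18 h of hypoxia F3 had risen by 1.79 with VHL (SE 0.228, 3.45-fold), with a limma adjusted p of 8.75e-05 with the block and 1 without it. In VHL-null cells the change was 0.06 (95% interval -0.42 to 0.55). The difference between the 2 hypoxia changes was -1.72 (SE 0.322, limma adjusted p 0.0185 with the block and 1 without).

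With the block, 7.51% of all tested genes were called for genotype at 0 h, 6.58% for hypoxia with VHL, 0.486% for hypoxia without VHL and 0.565% for the difference between the hypoxia changes. Of the 7 genes, 4 were called for genotype at 0 h (F3, THBD, PLAU and TFPI2), 3 for hypoxia with VHL (F3, PLAUR and TFPI), 0 for hypoxia without VHL and 1 (F3) for that difference. Without the block 0 of the 7 were called in any of these 4 tests, where limma called 0.118%, 0.0394%, 0% and 0% of all tested genes and the last 2 had 51 and 45 genes at an unadjusted p under 0.05. These tests share the 0 h arrays. The F3 call at 0 h was lost without VHL-null replicate 1 at 0 h (2.17, limma adjusted p 0.0663). The call on the F3 difference between hypoxia changes was lost without VHL-null replicate 1 (-1.40, limma adjusted p 0.988) or replicate 2 (-2.05, limma adjusted p 0.405) at 0 h. It was also lost with null entries as missing, no centring or quantile normalization (limma adjusted p 0.576 to 0.626), and the hypoxia call was lost under the same 3 settings (0.0522 to 0.0683). The sizes rest on the VHL-restored 0 h arrays, of which replicate 1 was listed at 9. Without that array the F3 genotype difference at 0 h was 1.84, the hypoxia change 1.13 and the difference between hypoxia changes -1.06 (log2 scale). Without VHL-restored replicate 2 at 0 h they were 3.16, 2.44 and -2.38, and with a pseudocount of 64 they were 1.72, 1.13 and -1.08. All of these 9 values were called in the blocked fit.

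The single arrays placed the rise of F3 within the first hours. In set 1 its intensity with VHL went from 9 at 0 h to 87 at 2 h, 94 at 6 h and 105 at 18 h. In set 2 it went from 126 at 0 h to 269 at 1 h, 255 at 4 h and 311 at 18 h, then to 229 after 1 h and 130 after 4 h of reoxygenation. The hypoxic arrays with VHL were thus all above the 0 h array of their set, as in 8.02% of tested genes. The array at 4 h of reoxygenation, which had the most null entries of all, was listed at 130 against 126 (0.37 higher on the centred log2 scale). On single arrays in set 2 the F3 change was 1.13 at 1 h (2.19-fold) on the log2 scale, past 2-fold, as were 0.801% of the tested genes in that direction. Without VHL the intensities ran 211, 312, 325 and 223 at 0, 2, 6 and 18 h in set 1, and 525, 346, 316 and 518 at 0, 1, 4 and 18 h in set 2, then 432 and 401 on reoxygenation. Those series had no common direction at the middle times, with both middle arrays above the 0 h array in set 1 and both below it in set 2.

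**Figure D1:**
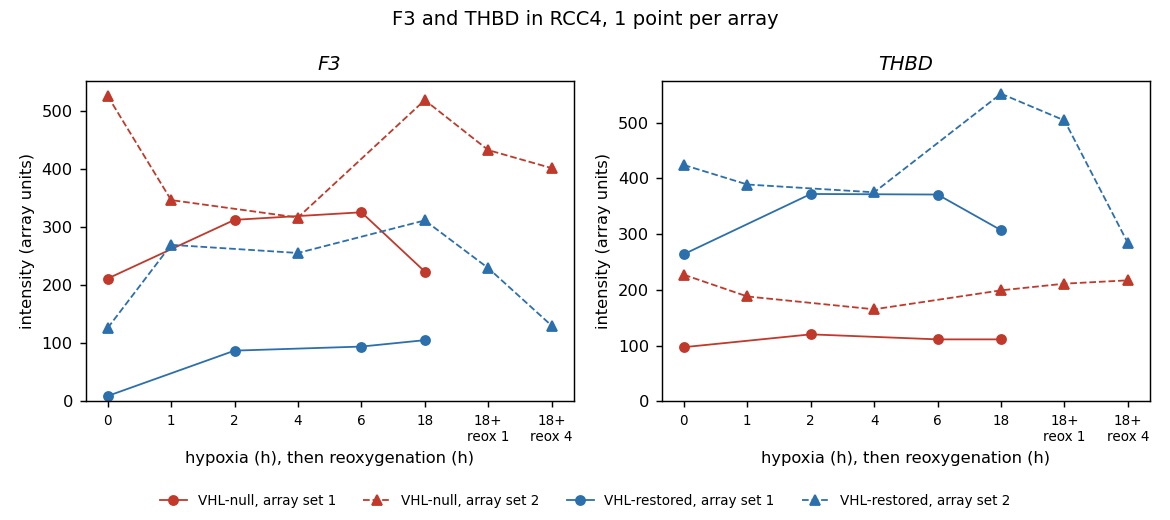
Intensity of F3 and THBD (array units, linear axis from 0) on each of the 20 RCC4 arrays against hours of hypoxia and then of reoxygenation, with VHL-null arrays in red, VHL-restored arrays in blue, and circles and triangles for array sets 1 and 2. With VHL, F3 climbs from 9 to 105 in set 1 and from 126 to 311 in set 2 by 18 h, while THBD with VHL lies above THBD without it at every state.

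Over all 8 states, 10 pairs of RCC4 arrays matched for state and set could be formed, and 5 of the 7 genes differed in 1 direction in every pair. F3 and PLAU were higher without VHL in 10 of 10 pairs, as were 5.86% of tested genes, and THBD, TFPI and TFPI2 were lower in 10 of 10, as were 8.02%. These pairs are centred log2 values: in listed intensity, TFPI after 4 h of reoxygenation was 159 without VHL and 156 with it. The F3 difference ran from 0.24 at 4 h to 3.24 in replicate 1 at 0 h on the log2 scale, and averaged 1.25 ± 0.89 (SD, n = 10 pairs). It averaged 1.88 ± 0.96 (SD, n = 4) in set 1 and 0.83 ± 0.59 (SD, n = 6) in set 2. The fit of all 20 arrays called F3 with a limma adjusted p of 0.00435, and with the array set as a block of 0.000397, where 15.1% and 34.2% of tested genes were called. Without centring the limma adjusted p for F3 was 0.0779. At 18 h the 2 genotypes differed by 0.78 in F3 (SE 0.228), with a limma adjusted p of 0.0472 with the block, where 7.59% of genes were called, and 1 without it. That call was lost without VHL-null replicate 1 or 2 at 0 h (0.237 each), without VHL-null replicate 1 at 18 h (0.49, limma adjusted p 0.0533) and under no centring, quantile normalization or null entries as missing (0.244 to 0.336).

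**Figure D2:**
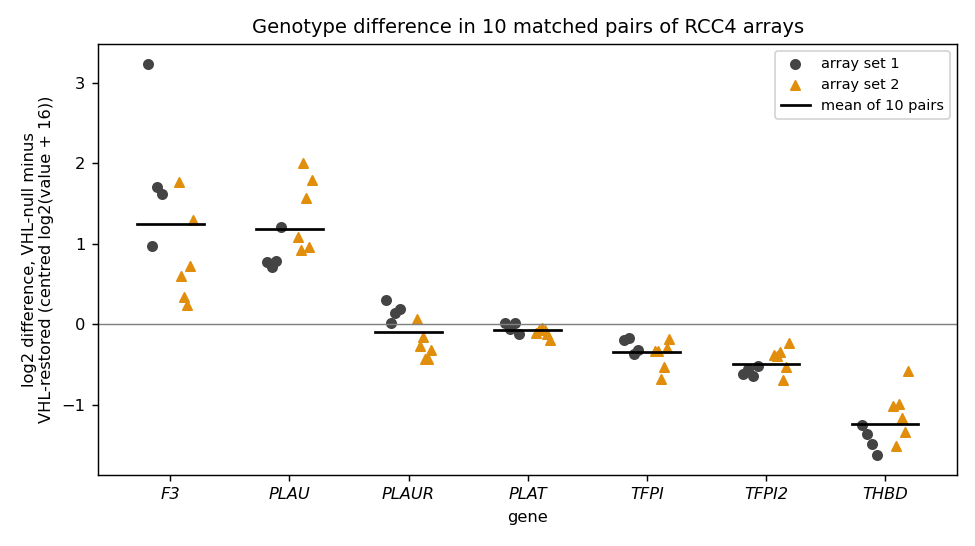
Log2 difference, VHL-null minus VHL-restored, of each gene in 10 pairs of RCC4 arrays matched for state and array set, with circles for set 1, triangles for set 2 and a bar at the mean of the 10. All F3 and PLAU points lie above 0, all TFPI, TFPI2 and THBD points below it, and PLAUR points lie on both sides, above 0 in set 1.

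THBD, the thrombin receptor of the anticoagulant protein C pathway, was lower in the VHL-null cells at every state. At 0 h its intensity was 264 and 424 with VHL and 97 and 227 without, and at 18 h it was 307 and 552 with VHL and 111 and 199 without. All VHL-null arrays lay below all VHL-restored arrays at both times, as in 1.93% of tested genes at 0 h and 3.59% at 18 h. Over all states the 10 null arrays (97 to 227) lay below the 10 restored arrays (264 to 552) without overlap, as in 0.25% of tested genes. The genotype difference was -1.14 on the log2 scale at 0 h (SE 0.1, limma adjusted p 1.3e-06 with the block and 0.148 without). At 18 h it was -1.44 (SE 0.1, limma adjusted p 1.38e-07 with the block and 0.12 without, where 0.0263% of genes were called). Both calls were kept in 14 of 14 settings of the blocked fit, with a limma adjusted p of at most 0.0134. The 14 settings, here and below, are that fit itself, other scalings and leaving out each of the 8 arrays. They are not independent checks, since leaving out an 18 h array keeps the 0 h difference at -1.14. Over all 20 arrays it was -1.24 (SE 0.0917, limma adjusted p 1.65e-07). In set 1 alone it was -1.43 and in set 2 alone -1.10, with limma adjusted p-values of 7.09e-06 and 3.4e-05. With hypoxia for 18 h THBD changed by 0.33 with VHL, which missed the threshold (limma adjusted p 0.0589 with the block), and its difference between the 2 hypoxia changes was -0.30 (limma adjusted p 0.838 with the block). At 4 h of reoxygenation THBD with VHL was listed at 284, against 552 at 18 h in the same set, a fall of 0.65 relative to the array median on single arrays.

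TFPI and TFPI2, both Kunitz-type protease inhibitors, were lower without VHL by less. TFPI inhibits the tissue factor and factor VIIa complex, and TFPI2 is a matrix-associated inhibitor of plasmin and related proteases. At 0 h the intensity of TFPI2 was 444 and 833 with VHL and 273 and 711 without, and after 18 h the pairs were 325 and 856 with VHL and 218 and 702 without. The VHL-null array was the lower within each replicate, while replicate 2 without VHL lay above replicate 1 with VHL. The difference was -0.50 at 0 h and -0.48 at 18 h (SE 0.129 each, limma adjusted p 0.0226 and 0.0301 with the block, 1 and 1 without). With the block these calls were kept in 8 and 7 of 14 settings. They were lost under no centring, quantile normalization or null entries as missing (limma adjusted p 0.149 to 0.299). They were lost without either VHL-null array at 0 h (0.216 and 0.386 at 0 h, 0.16 each at 18 h). At 0 h the call was lost also without VHL-restored replicate 1 at 0 h (0.382), and at 18 h without VHL-null replicate 1 (0.575) or VHL-restored replicate 2 (0.127) at 18 h. Over all 20 arrays TFPI2 differed by -0.49 (SE 0.128, limma adjusted p 0.0142, and 9.58e-06 with the array set as a block), and without centring the limma adjusted p was 0.48.

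TFPI intensity with VHL was 183 and 244 at 0 h and 133 and 184 at 18 h, and without VHL it was 151 and 216, then 118 and 156. It was lower at 18 h than at 0 h in each replicate of both genotypes. The change with hypoxia was -0.35 with VHL (SE 0.098, limma adjusted p 0.0406 with the block and 1 without) and -0.34 without VHL (limma adjusted p 0.163 with the block). The call with VHL was kept in 4 of 14 settings of the blocked fit and lost without any 1 of the 8 arrays (limma adjusted p 0.0573 to 0.323). Between genotypes TFPI differed by -0.35 over all 20 arrays (SE 0.0629, limma adjusted p 0.00114), and without centring the limma adjusted p was 0.157. In array set 1 the 4 differences between genotypes averaged -0.27 ± 0.097 (SD) and in set 2 the 6 averaged -0.40 ± 0.18 (SD).

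**Figure D3:**
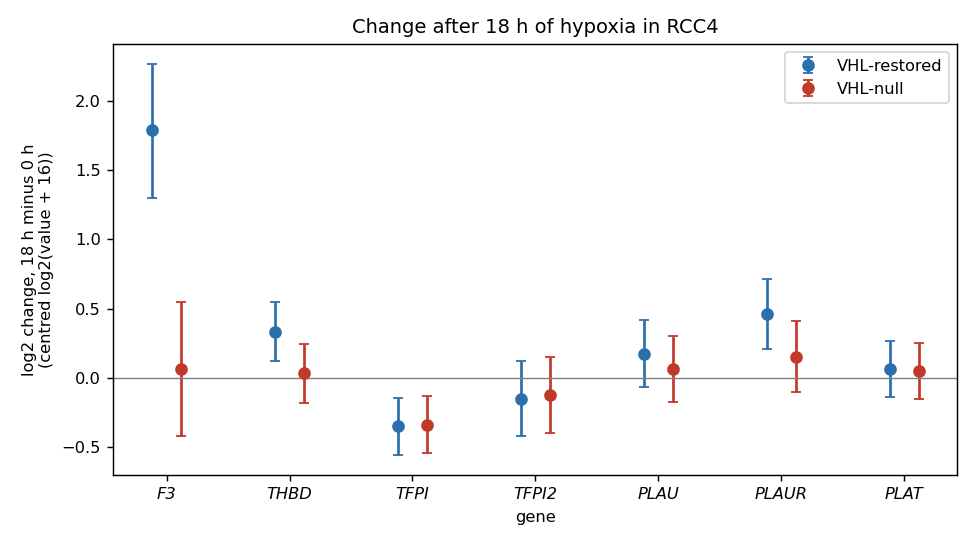
Log2 change from 0 h to 18 h of hypoxia in RCC4 (2 arrays per group, limma fit with the replicate number as a block), with points for the estimate and bars for its 95% interval, blue with VHL and red without. F3 stands at 1.79 with VHL and 0.06 without, TFPI lies below 0 in both genotypes, and PLAUR stands at 0.46 with VHL.

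PLAU, which encodes urokinase, was higher without VHL at every state. Its intensity at 0 h was 42 and 117 with VHL and 79 and 301 without, and at 18 h it was 42 and 143 with VHL and 80 and 311 without. The VHL-null array was the higher within each replicate, while VHL-restored replicate 2 lay above VHL-null replicate 1. The genotype difference was 0.93 on the log2 scale at 0 h (SE 0.113, limma adjusted p 4.82e-05 with the block and 1 without). At 18 h it was 0.82 (SE 0.113, limma adjusted p 0.000202 with the block and 1 without), and this call was kept in 14 of 14 settings of the blocked fit. The call at 0 h was lost without VHL-null replicate 2 at 0 h (0.90, limma adjusted p 0.0625). Over all 20 arrays PLAU differed by 1.18 (SE 0.19, limma adjusted p 0.00041), by 0.87 in set 1 alone and by 1.39 in set 2 alone. The widest pair was the one at 1 h, with 323 without VHL and 68 with it. With VHL the PLAU arrays of set 2 at 1 h, 4 h and 4 h of reoxygenation were listed at 68, 63 and 57, below the 117 at 0 h, and those at 18 h and 1 h of reoxygenation at 143 and 138. Without VHL all 6 arrays of that set lay between 228 and 323.

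PLAUR, the urokinase receptor on the cell surface, rose with hypoxia in the VHL-restored cells, by an amount not called different from that in VHL-null cells. Its intensity with VHL was 256 and 352 at 0 h and 306 and 535 at 18 h, and without VHL it was 305 and 415, then 313 and 479. In each of the 2 replicates the 18 h array was the higher, and the groups overlapped across replicates. The change with VHL was 0.46 (SE 0.12, 1.38-fold), with a limma adjusted p of 0.0273 with the block and 1 without. The difference between the hypoxia changes of the 2 genotypes was -0.31 (SE 0.17, limma adjusted p 1 with the block). The call with VHL was kept in 7 of 14 settings of the blocked fit. It was lost without VHL-restored replicate 2 at 18 h (0.25, limma adjusted p 0.516) or at 0 h (0.075), without either VHL-null array at 0 h (0.076 each), and under no centring, quantile normalization or null entries as missing (0.107 to 0.131). On single arrays with VHL in set 2, PLAUR was listed at 352 at 0 h, 458 at 1 h, 457 at 4 h and 535 at 18 h. After reoxygenation it was 533 at 1 h and 423 at 4 h. The genotype difference of PLAUR was 0.16 in set 1 alone (limma adjusted p 0.127) and -0.26 in set 2 alone (limma adjusted p 0.0119), and -0.09 over all 20 arrays (limma adjusted p 0.511).

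**Figure D4:**
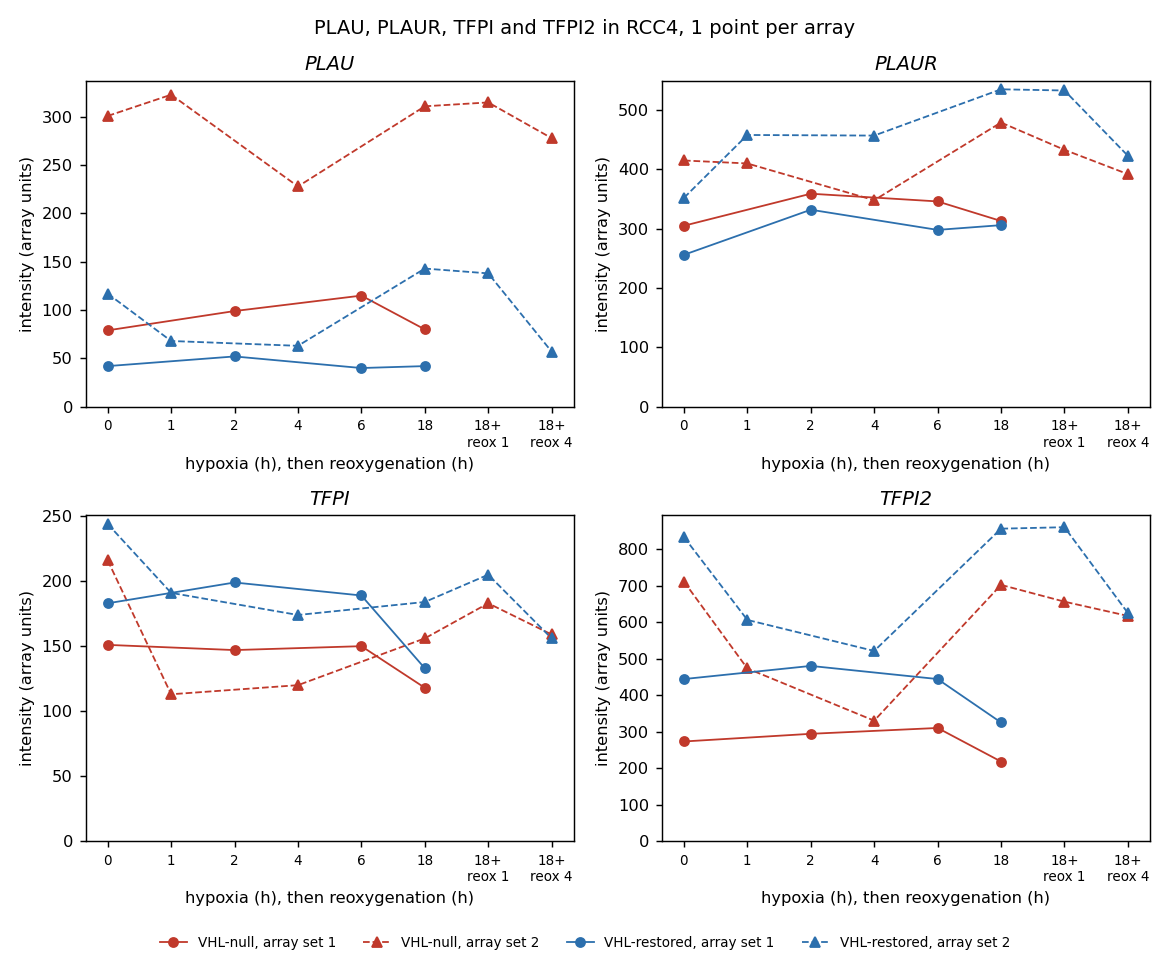
Intensity of PLAU, PLAUR, TFPI and TFPI2 (array units, linear axes from 0) on each RCC4 array against hours of hypoxia and then of reoxygenation, in the colours and symbols used for F3 and THBD. PLAU without VHL stays at 228 to 323 in set 2 against 57 to 143 with VHL, and PLAUR with VHL goes from 352 to 535 in that set by 18 h.

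PLAT, the tissue plasminogen activator, was nearly constant in intensity. It lay between 432 and 555 on all 30 arrays, and on the uncentred log2 scale its SD was 0.0795, with 2.05% of the tested genes less variable. Centred on the array medians, PLAT had a correlation of -0.965 with the array median itself over the 30 arrays, so its centred values followed the array's scale. Its genotype difference over the 20 RCC4 arrays was -0.08 (SE 0.087, limma adjusted p 0.608), and -0.01 without centring. F3 was at the other end, with an uncentred SD of 1.72 that 99.4% of tested genes did not reach. That SD includes the 4 H1299 arrays, where F3 was null and taken as 0, so its size depends on the pseudocount.

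In HCT116 cells F3 and PLAUR were higher and PLAU lower on the hypoxic arrays of both p53 genotypes. PLAU went from 139 at 0 h to 65 and 86 at 12 h and 24 h in the p53-null cells and from 176 to 88 and 96 in the wild-type cells. PLAUR went from 362 to 537 and 512 in the p53-null cells and from 395 to 665 and 604 in the wild-type cells. F3 went from 24 to 40 and 43 in the p53-null cells and from a listed 0 to 60 and 101 in the wild-type cells. No hypoxic array overlapped the 0 h arrays in any of these 3 genes, but 16.7% of all tested genes lay higher without overlap on these arrays and 12.2% lower. A fit of both hypoxic times against 0 h over the 6 HCT116 arrays, chosen after the values were seen, gave a PLAU change of -0.79 (SE 0.101, limma adjusted p 0.0362). In the same fit PLAUR changed by 0.60 (SE 0.0773, limma adjusted p 0.0362), and 1.44% of tested genes were called. Without filtering the limma adjusted p-values were 0.127 for PLAU and 0.111 for PLAUR. Leaving out each of the 6 arrays in turn left a PLAU call in 1 case, without the p53-null array at 24 h (limma adjusted p 0.0491), with 0.0644 to 0.199 in the other 5, and no PLAUR call (0.0817 to 0.147). F3 was not called (limma adjusted p 0.168). No size is given for the F3 change of the fit, which would be set by the pseudocount where the wild-type array at 0 h was listed at 0, and without that array it was 0.52.

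In H1299 cells F3 was null on all 4 arrays, and PLAU went from 42 to 60 in the p53-null cells and from 48 to 66 in the cells with p53. PLAUR went from 351 to 381 and from 361 to 369. HCT116 minus H1299, the log2 change at 24 h differed by -1.06 for PLAU (SE 0.118, limma adjusted p 0.4) and by 0.47 for PLAUR (SE 0.124, limma adjusted p 0.822), and 0 genes were called in this comparison by limma, with 435 at an unadjusted p under 0.05. Over both lines at 24 h limma also called 0 genes (427 at an unadjusted p under 0.05). There PLAUR changed by 0.31 and PLAU by -0.15, with limma adjusted p-values of 0.654 and 0.818, and F3, null in H1299, is given no value over both lines. With HCT116 alone 1.58% of genes were called at 24 h, none of the 7 among them (PLAU limma adjusted p 0.057, PLAUR 0.0884).

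**Figure D5:**
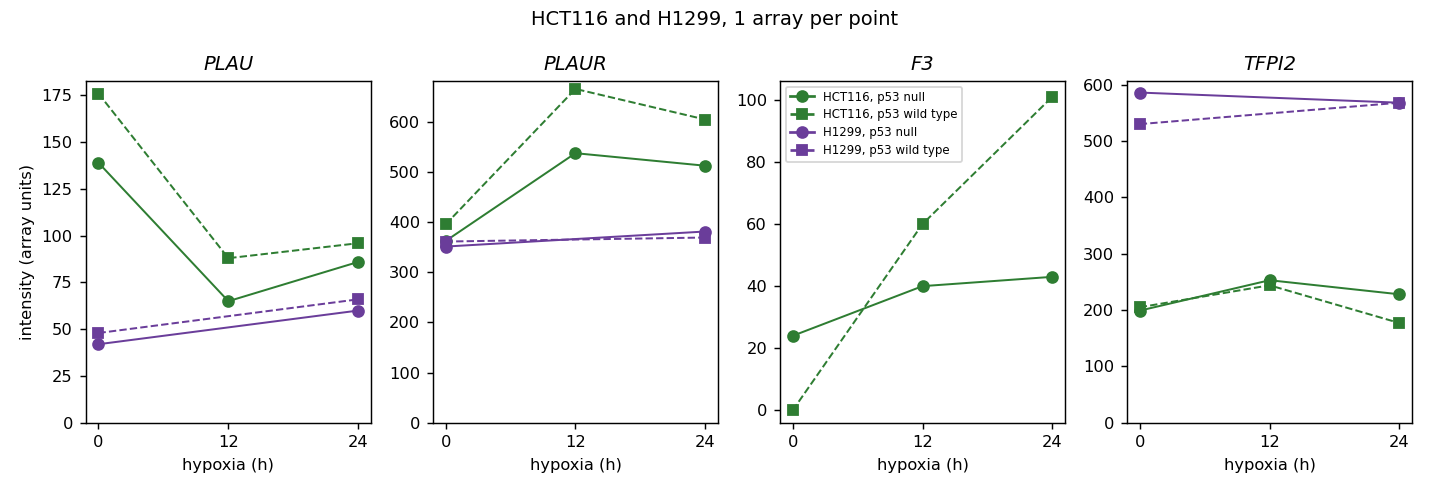
Intensity of PLAU, PLAUR, F3 and TFPI2 (array units) against hours of hypoxia in HCT116 (green) and H1299 (purple), 1 array per point, with circles and solid lines for p53-null and squares and dashed lines for p53 wild-type cells. PLAU falls from 139 and 176 in HCT116 while it goes from 42 to 60 and 48 to 66 in H1299, and F3 is plotted for HCT116 alone because it was null in H1299.

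Between p53 genotypes limma called 0 genes over the 10 arrays of the 2 lines (526 at an unadjusted p under 0.05). PLAU was higher in the p53 wild-type cells in 5 of 5 pairs matched for line and time, as were 4.36% of tested genes, by 0.21 on average (SE 0.0531, limma adjusted p 0.721). Over 6 backgrounds of the 3 lines, late hypoxia (18 h or 24 h) also gave 0 calls (925 at an unadjusted p under 0.05). In that fit the PLAUR change was 0.31 (SE 0.0859, limma adjusted p 0.395). By background the F3 change was 2.31 and 1.26 in the 2 replicates of RCC4 with VHL, 0.04 and 0.09 in those without VHL, and 0.55 in p53-null HCT116 cells. No F3 change is given for p53 wild-type HCT116 cells, listed at 0 in oxygen and at 101 at 24 h, or for H1299, null at both times.

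Between lines in oxygen the 2 genotypes of a line served as its repeats. THBD was listed at 97 to 424 on the RCC4 arrays at 0 h, at 46 and 42 in H1299 and at 63 and 46 in HCT116. No RCC4 array overlapped those of the other lines, as in 33.5% of tested genes in that direction. RCC4 was higher by 1.55 than H1299 (SE 0.374, limma adjusted p 0.0191, where 55.4% of genes were called) and by 1.31 than HCT116 (SE 0.374, limma adjusted p 0.0298, where 60.3% were called), shares above those of any other comparison here. The RCC4 and H1299 difference was lost without H1299 p53-null (limma adjusted p 0.0599) or p53 wild-type cells (0.0694), and was 0.98 without VHL-restored RCC4. The RCC4 and HCT116 difference was lost without HCT116 p53-null (0.0708) or p53 wild-type cells (0.128) and with RCC4 replicate 1 alone, which shares the array set (1.19, limma adjusted p 0.0565), and was 0.74 without VHL-restored RCC4.

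TFPI2 was listed at 586 and 530 in H1299, 199 and 205 in HCT116 and 273 to 833 in RCC4 at 0 h. H1299 and HCT116, both in array set 1, did not overlap, as in 25.8% of tested genes in that direction, and differed by 1.37 (SE 0.172, limma adjusted p 0.016, where 6.2% of genes were called). This call was lost without any 1 of the 4 backgrounds of the 2 lines (limma adjusted p 0.0537 to 0.0961). TFPI2 was called lower in RCC4 than in H1299 (-0.56, limma adjusted p 0.0404) and higher than in HCT116 (0.82, limma adjusted p 0.0115). With RCC4 replicate 1 alone these were -0.79 (limma adjusted p 0.0281) and 0.58 (limma adjusted p 0.0652). PLAU was listed at 42 and 48 in H1299 and at 139 and 176 in HCT116 (-1.52, SE 0.308, limma adjusted p 0.0553). Its RCC4 arrays spanned 42 to 301 at 0 h and overlapped both, with VHL-restored replicate 1 at the lowest H1299 value. PLAU was called lower in RCC4 than in HCT116 (-0.96, limma adjusted p 0.0416, where 60.3% of genes were called). With RCC4 replicate 1 alone, in the same array set, it differed by -1.38 (limma adjusted p 0.00905, where 2731 genes were called). On those arrays PLAU was listed at 42 and 79. Against H1299 the RCC4 difference was 0.56 and not called (limma adjusted p 0.173). PLAUR was called lower in RCC4 than in H1299 (-0.57, limma adjusted p 0.00519) and than in HCT116 (-0.68, limma adjusted p 0.00292). With RCC4 replicate 1 alone these were -0.47 (limma adjusted p 0.0306) and -0.58 (limma adjusted p 0.0145). TFPI was listed at 101 to 113 in H1299 and HCT116 and at 113 to 244 in RCC4, whose set 2 arrays were brighter. Relative to the array median, VHL-null RCC4 at 1 h (-0.757) lay below the lowest H1299 or HCT116 array (-0.295). VHL-restored RCC4 at 2 h (0.417) lay above the highest (-0.149). In oxygen RCC4 was higher by 0.37 than H1299 (SE 0.11, limma adjusted p 0.0367, where 55.4% of genes were called). Against HCT116 it was higher by 0.29 and not called (SE 0.11, limma adjusted p 0.0703, where 60.3% were called). With RCC4 replicate 1 alone, in the same array set, TFPI was called against both lines, where 2399 and 2731 genes were called. The differences were 0.47 from H1299 (limma adjusted p 0.0199) and 0.39 from HCT116 (limma adjusted p 0.0325). On those RCC4 arrays TFPI was listed at 151 and 183, above every H1299 and HCT116 array.

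Of 56 other genes of the clotting and plasminogen systems listed for comparison, 40 were single-symbol genes on the array and 18 were bright enough to test. Without the replicate block 0 of the 18 were called in any of the 5 comparisons of replicated RCC4 arrays. With the block, 1 of the 18 was called for genotype at 0 h, beside 7.51% of all tested genes, and the median difference was -0.01 against -0.01 over all tested genes. The gene was ANXA2, which encodes a cell-surface receptor for plasminogen and its activator. ANXA2 differed by -0.58 at 0 h (SE 0.1, limma adjusted p 0.0013) and by -0.44 at 18 h (SE 0.1, limma adjusted p 0.0106). At 18 h 2 of the 18 were called, beside 7.59% of all tested genes, the other being VKORC1L1, a paralog of the vitamin K epoxide reductase (0.61, SE 0.154, limma adjusted p 0.0199). For hypoxia with VHL 1 of the 18 was called, beside 6.58% of all tested genes. This was VKORC1, the vitamin K epoxide reductase itself (0.50, SE 0.125, limma adjusted p 0.0197), and 0 were called in hypoxia without VHL and 0 in the difference between hypoxia changes. Over all 20 RCC4 arrays 1 was higher (VKORC1L1) and 3 lower (ANXA2, SERPINE2 and MCFD2), beside 15.1% of all tested genes called. With the array set as a block F2RL2, a thrombin receptor family member, was called lower as well (-0.14, limma adjusted p 0.0484), beside 34.2% of all tested genes. At 0 h, in hypoxia with VHL and over all arrays with the block, the share of the 18 that was called lay below that of all tested genes. At 18 h and over all arrays without the block it lay above. These shares rest on few genes, so neither direction is read as a result about the list. SERPINE2 encodes a protease inhibitor that acts on thrombin and urokinase, and differed by -0.33 (SE 0.0751, limma adjusted p 0.00355 with the block). The list's median there was -0.12, against -0.05 over all tested genes. No gene of the 18 was called in HCT116 hypoxia. In that fit the list's median was 0.07 and that of all tested genes 0.04. Between lines in oxygen, PROCR and SERPINE2 were called higher in RCC4 than in H1299, beside 55.4% of all tested genes called. Lower relative to the array median were F7 (-2.07), SERPINC1, SERPIND1, F2RL2, KNG1 and MMP9. With RCC4 replicate 1 alone, which shares the array set, SERPIND1 and KNG1 were not called. In listed intensity KNG1 was 122 to 170 in RCC4 at 0 h, against 135 and 114 in H1299, and SERPINC1, SERPIND1 and MMP9 overlapped too. Against HCT116, PROCR, S100A10 and VKORC1L1 were called higher in RCC4, beside 60.3%. Lower relative to the array median were F7 (-2.20), SERPINC1, SERPIND1, F2RL2, MMP9 and FURIN. FURIN was not called with RCC4 replicate 1 alone. Its listed intensity at 0 h was 272 to 387 in RCC4, above the 260 and 265 in HCT116. SERPINE2 was called lower in H1299 than in HCT116 (-1.48), beside 6.2%.

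The genes whose centred levels followed each member most closely over the 30 arrays, by Pearson correlation, are given as a description, since the arrays share lines, sets and scale. They were TUBA4A (0.930), DPCD (0.930) and CD44 (0.912) for F3, and AIF1L (0.973), CNN1 (0.954) and TNFRSF21 (0.942) for THBD. For PLAU they were weaker, led by ITPRIP (0.849), and for PLAUR they were MT2A (0.893), TSPYL2 (0.893) and ERO1A (0.889). TFPI was nearest to CALCRL (0.818) and TFPI2 to CMAS (0.853). The closest for PLAT, LRRN3 (0.982), fell to 0.903 within array sets. Among the members themselves the strongest correlations were F3 with PLAT (-0.659) and PLAUR with PLAT (0.648), and F3 with THBD stood at 0.486. With the array median itself the correlations were 0.654 for F3, -0.647 for PLAUR and -0.965 for PLAT. Neither pair with PLAT is therefore read as a relation between the genes.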

How the data were processed

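RNA of 30 cultures was hybridised to Affymetrix arrays with 35356 probe sets. The authors deposited a linear intensity per probe set, in whole numbers or as null; the software, the scaling and the meaning of null are not given in the sources used here. Null was taken as 0, and values as log2(intensity + 16). Each array was centred on the median of its genes, since array medians spanned 0.903 on the log2 scale. Of 17478 annotated probe sets 16905 carried 1 symbol, and the brightest probe set per gene gave 12690 genes, of which the upper 60% by mean, 7614, were tested two-sided with limma 3.58.1 (R 4.3.3) at an adjusted p of 0.05, by Benjamini-Hochberg over these genes. The number of arrays limits the precision. The p-values reflect only how far these samples spread, or between genotypes or times where these serve as repeats.

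The fits were 1 mean per group over the 8 replicated RCC4 arrays, genotype plus state over all 20, background or stratum as a block in H1299 and HCT116, and 1 mean per line at 0 h. Replicate numbers in the labels were checked for pairing: replicate differences correlated between groups at 0.794 to 0.916 across genes in 6 of 6 pairs of groups, so the block is given beside each result it changes. Replicate number and array set coincide on these 8 arrays, so the 2 cannot be told apart.

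All 7 members are named. From the other lists, up to 4 called genes per list and comparison are named by limma's statistic, and the 3 nearest genes per member by Pearson correlation. The members and lists were chosen with earlier results of these data known. Alternatives were another pseudocount (64), null as missing, no centring, quantile normalization, no filter, the mean of probe sets, the block, single array sets or lines, and leaving out arrays. The fits were tested on simulated data.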

Additional observations from a re-analysis of the deposited data

Results flagged for a closer look

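The F3 response to 18 h of hypoxia differed between the VHL genotypes of RCC4 by -1.72 on the log2 scale in the blocked fit. It was singled out because the difference itself was tested and passed the threshold, and its dependence on arrays and scaling is given with the result.

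The PLAU change at 24 h differed by -1.06 on the log2 scale, HCT116 minus H1299. It was singled out because both HCT116 backgrounds fell (-0.61 and -0.75 on the log2 scale) and both H1299 backgrounds were higher (0.40 and 0.35). The difference did not pass the test over all genes (limma adjusted p 0.4).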

How the results depend on the processing

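The numbers of genes called, over all tested genes, moved with these settings. With the replicate number as a block (the pairing), calls went from 9 to 572 for genotype at 0 h, 3 to 501 for hypoxia with VHL, 0 to 37 for hypoxia without VHL, 2 to 578 for genotype at 18 h and 0 to 43 for the difference between hypoxia changes, and with the array set as a block from 1151 to 2601 for genotype over all states. Without centring they were 2, 0, 0 and 226 for genotype at 0 h, hypoxia with VHL, genotype at 18 h and genotype over all states. Without filtering they were 1 each for genotype at 0 h, hypoxia with VHL and genotype at 18 h, 6951 and 7502 for RCC4 against H1299 and HCT116 (from 4217 and 4589) and 26 for the HCT116 time course (from 110). Null entries as missing gave 4 for genotype at 18 h, 2775 for RCC4 against H1299 and 189 for the HCT116 time course. A pseudocount of 64 gave 11 for hypoxia with VHL and 208 for the HCT116 time course, and the mean of probe sets gave 9 for hypoxia with VHL. Set 2 alone gave 3478 for genotype over all states. HCT116 alone gave 120 for 24 h hypoxia and 2 for p53 (both from 0). RCC4 replicate 1 alone gave 2399 and 2731 against H1299 and HCT116. Leaving out 1 array or background gave 1 to 8, 0 to 6, 0 to 0, 1 to 2 and 0 to 0 for the 5 comparisons of replicated RCC4 arrays, 0 to 7 for 24 h hypoxia, 0 to 0 for p53, 2705 to 4055, 3177 to 4664 and 113 to 372 for the 3 comparisons of lines, and 10 to 234 for the HCT116 time course. The share of calls higher in RCC4 went from 27.9% to 85.6% against H1299 and from 28.9% to 84.2% against HCT116 without centring, and to 56.9% and 56.3% with null entries as missing. For genotype over all states the share higher without VHL went from 47.3% to 67.5% with null entries as missing.

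Of 477 alternative values for 37 of the named results, 425 kept their direction and their side of the threshold, 27 lost a call, 17 gained one and 8 reversed. Each value was set against the main fit without the block. That fit called no member in the comparisons of replicated RCC4 arrays, so there a kept side means that the gene stayed uncalled. The tally does not assess the calls of the blocked fit, whose losses are given with each result. Reversed were F3 in hypoxia without VHL (-0.0094 with null entries as missing; leaving out each array, -0.21 to 0.34), TFPI2 for genotype at 18 h (leaving out each array, -0.99 to 0.029), PLAUR for genotype over all states (0.16 in set 1 alone) and PLAU in 24 h hypoxia (0.38 in H1299 alone; leaving out each background, -0.34 to 0.048). None of these was called in the main fit. PLAUR was called in set 2 alone (-0.26), opposite in sign to set 1. TFPI2 at 18 h was called with the replicate block (-0.48, limma adjusted p 0.0301). For the changes between settings the cause was not tested.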
